A study of Homo sapiens with 9 samples.

Results

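The 59 genes described here had fewer newly made reads soon after the transcription factor SOX9 was degraded in human cranial neural crest cells (CNCCs), and still had fewer a day later. They were chosen from the measured values. A gene was taken if its T>C read count, scaled to the T>C total of its library (CPM, counts per 1000000), averaged at least 3 over 9 libraries, and if its log2 ratio to the 0h library of the same culture, with 0.5 CPM added, was at or below -0.4 in all 3 cultures at 3h and again in all 3 at 24h. Of 18970 genes listed, 10731 reached the CPM floor and 65 met the rule. SOX5, TENT5B, LRATD2, OPRD1, CCDC88C and ITGA6 also met it and were left out by name, which left 59. The same rule turned round, for rises, was met by 51 genes. The changes of T>C reads against 0h below are therefore a description of the choice, without a test.

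CNCCs are migratory embryonic cells that give rise to much of the facial skeleton, and SOX9 acts in them and in cartilage. The cells were made from the human embryonic stem line H9 after both SOX9 copies had been fused to FKBP12-F36V, mNeonGreen and V5. The small molecule dTAGV-1 binds this tag and sends the tagged protein for degradation. All groups carried the tag. The groups are named by time with dTAGV-1 (500 nM), as 0h, 3h and 24h. The labels give a relative SOX9 level of 100 at 0h and 0 at 3h and 24h, and list dTAGV-1 for 0h too, whereas the study's methods describe a DMSO control. Each group held the same 3 passage 4 cultures, S9CC13_R6, S9CC47_R5 and S9CC47_R6, named for 2 clones of the tagged line (S9CC13, S9CC47) and 2 differentiation batches (R5, R6), so clone S9CC13 and batch R5 had 1 culture each. Values given for all 9 libraries follow this order of cultures within each group.

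New RNA was read by SLAM-seq. Cells took up 4-thiouridine (4sU, 100 uM) for the last 2 h. Labelling of the 3h samples therefore began once dTAGV-1 had acted for 1 h, and of the 24h samples once it had acted for 22 h. Alkylated 4sU is read as a T>C conversion in 3′ end libraries. A T>C read thus comes from RNA made during the label. A read without a conversion (an unconverted read) comes mostly from RNA made before it, but also from labelled RNA in which no converted base was read. The T>C share of a gene is the percentage of all its reads that carry a conversion. It is high for an RNA that turns over fast and low for an RNA that is kept for long. Because each kind of read was scaled to its own library total, a CPM is a level relative to all other genes, and CPM values of T>C and unconverted reads are on different scales.

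The libraries held 3130673 to 5475800 T>C reads and 16955633 to 28782678 total reads. Over whole libraries the mean T>C share of the 0h group was 19.1% ± 0.852 (SD, n = 3), that of the 3h group 17.9% ± 1.82 and that of the 24h group 20.5% ± 0.752. All 22 mesenchymal neural crest markers listed were in the table, and 18 of them averaged at least 10 CPM of total reads. Their summed total reads lay between 4728 and 4885 CPM at 0h, between 5169 and 5268 at 3h and between 6117 and 6700 at 24h. Of 9 glial and melanocyte markers, 0 reached 10 CPM on average and SOX10, FOXD3, DCT and S100B stayed under 1. Their sum was 14.6 to 20.2 CPM at 0h, 9.88 to 14.3 at 3h and 3.16 to 4.67 at 24h. ERBB3, a member of the set described here, held most of that sum at 0h, and 0.363 to 0.641 CPM of it at 24h.

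**Figure D1:**
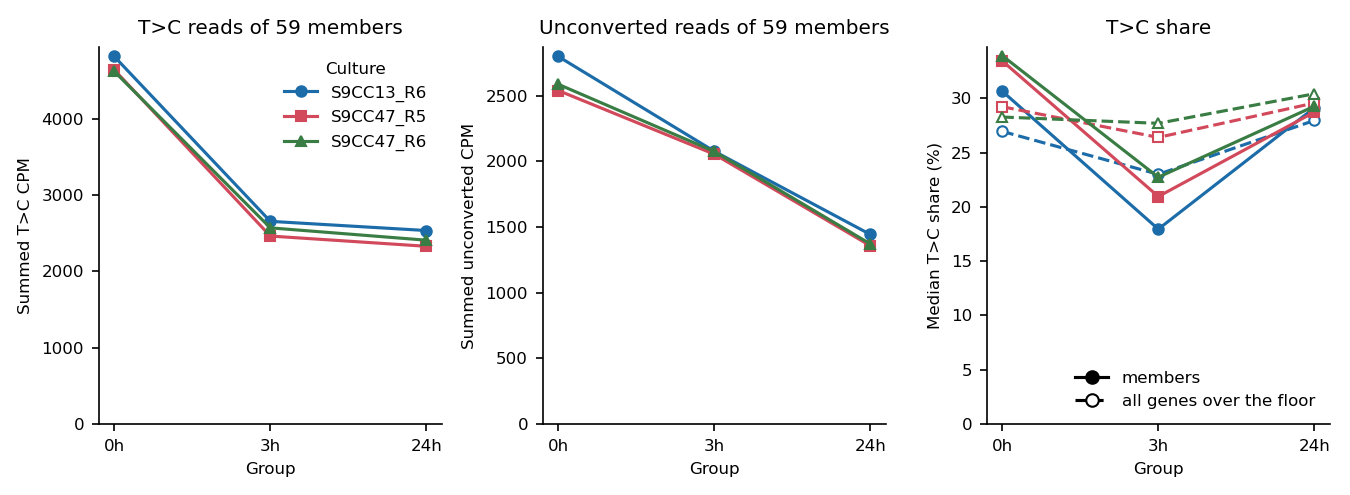
The 59 genes by library, as lines for each of the 3 cultures over the 0h, 3h and 24h groups: summed T>C CPM (left), summed unconverted CPM (middle) and median T>C share in percent (right), with filled symbols for the 59 genes and open symbols for all 10731 genes over the CPM floor. T>C reads are lower at 3h and close to that level at 24h, unconverted reads are lower at 3h and lower again at 24h, and the share of the 59 genes dips at 3h.

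Together the 59 genes held 4692 ± 107 T>C CPM at 0h, 2563 ± 96.5 at 3h and 2425 ± 104 at 24h. Their unconverted reads summed to 2641 ± 138 CPM at 0h, 2068 ± 12.4 at 3h and 1390 ± 46.1 at 24h, and their total reads to 3034 ± 119, 2156 ± 24.2 and 1602 ± 52.6 CPM. That T>C reads were low at both times was set by the rule, which took no gene with a late fall alone. The unconverted sum was lower at 24h than at 3h in all 3 cultures. The rule did not count these reads, but they come from the same genes and libraries and are not independent of the choice. The median log2 ratio to 0h was -0.97 at 3h and -1.10 at 24h for T>C reads, -0.32 and -0.88 for unconverted reads, and -0.46 and -0.94 for total reads. Over all genes above the floor these medians lay between -0.01 and 0.04.

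The T>C share followed from these levels. The median over the 59 genes at 0h was 32.7% ± 1.77, against 20.5% ± 2.42 at 3h and 29.0% ± 0.275 at 24h. Over all 10731 genes it was 28.1% ± 1.14, 25.7% ± 2.43 and 29.3% ± 1.25. Taken gene by gene, the median change of the share from 0h was smaller, -7.38 points at 3h and -0.987 at 24h. Over all genes it was -2.05 and 0.989. At 3h the share was below that of 0h in all 3 cultures for 53 of the 59 genes, and for 34.5% of all genes. At 24h it was below 0h in all 3 cultures for 19 and above it in all 3 for 10, with 7.74% and 24.6% of all genes beside them. Since the share is made of the T>C reads that chose the genes, the dip at 3h is a description. From the summed reads of the 59 genes the share at 0h came to 29.6% ± 1.73, at 3h to 21.2% ± 1.82 and at 24h to 31.0% ± 1.06, so at 24h the sign of the difference from 0h depended on whether genes were pooled.

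With DESeq2 fitted across 12037 genes, 37 of 58 members tested were called lower in T>C reads at 3h (background 0.789%) and 43 at 24h (background 2.59%), at a Benjamini-Hochberg adjusted p below 0.1. Both counts come from the contrasts that the rule used, and nothing is read from them. Called at both times were 36 members, and DACH1 at 3h alone. Not called at either were 14, namely ABHD14A, ADGRA2, AGMAT, ARAP2, CAPN6, CCDC113, CXADR, FAT4, GUCY1A1, HDC, KIF1A, SFXN4, TNS2 and ZNF785. The depth was low for many genes, with a mean under 50 T>C reads in 25 members and under 20 in 12. The 3h count was 16 without S9CC13_R6, 22 without S9CC47_R5 and 13 without S9CC47_R6, and the 24h count was 16 without S9CC13_R6 and 24 without S9CC47_R6.

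**Figure D2:**
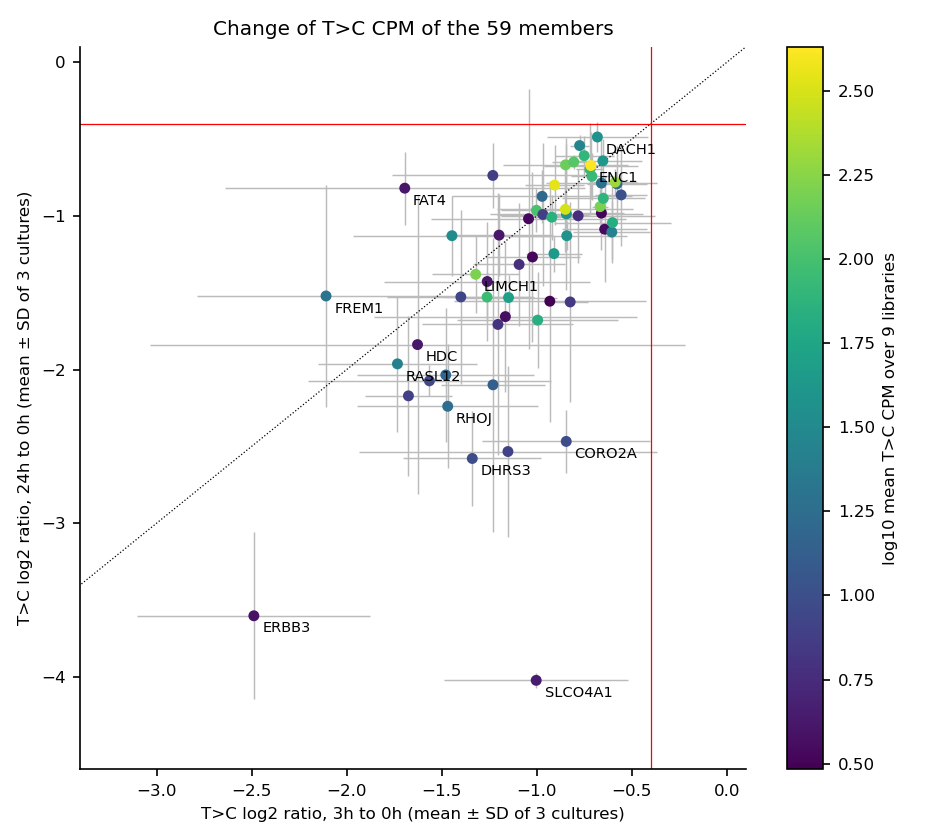
Mean log2 ratio of T>C CPM to 0h at 3h (horizontal) and at 24h (vertical) for the 59 genes, with bars for the SD over 3 cultures, colour for log10 of the mean T>C CPM, red lines at the threshold of -0.4 and a dotted line of equal change. ERBB3 has the lowest mean of both axes, SLCO4A1 and CORO2A lie far below the dotted line, and FREM1 and FAT4 lie above it.

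At the edge of the rule, the member with the highest of its 6 ratios was ABHD14A (-0.40), followed by DACH1 (-0.40) and KIF3A (-0.41). Just outside were CD200 (-0.40), ANO4 (-0.40) and ROR1 (-0.39). ANO4 T>C CPM was 94.2, 103 and 75.6 at 0h, 52.7, 78.2 and 55.8 at 3h and 20.8, 39 and 22.3 at 24h. CD200 T>C CPM was 41.4, 44.8 and 44.9 at 0h, 20.8, 32.4 and 33.9 at 3h and 30.5, 19.5 and 34 at 24h, and that of ROR1 was 111, 135 and 123 at 0h, 82.4, 87.3 and 93.8 at 3h and 64.9, 75 and 88.2 at 24h. These 3 genes were below 0h in every culture at both times and missed the threshold in at least 1 library. ABHD14A, at 4.8, 5.28 and 5.55 at 0h, 3.51, 3.09 and 2.88 at 3h and 1.85, 3.04 and 1.83 at 24h, held between 8 and 30 T>C reads a library. KIF3A, a kinesin motor subunit needed to build cilia, was at 131, 95.6 and 114 at 0h, 76.7, 56.7 and 73.1 at 3h and 65.4, 72 and 71 at 24h.

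The 24h group was also set against the 3h group in the same fits. For T>C reads this difference is made of both ratios that the rule used, so it is a description, and no p-value is given for a gene. In T>C reads, 2 of the 58 members tested were called lower at 24h than at 3h (background 0.598%) and 0 were called higher (background 0.54%). At an unadjusted p under 0.05, 9 members were lower and 0 higher, and edgeR's quasi-likelihood test also called 2 lower and 0 higher. With the culture as a replicate block, the count was 5 lower and 0 higher, adding DHRS3, SYNPO and VWA1. Without S9CC13_R6 or without S9CC47_R5 it was 0 and without S9CC47_R6 it was 1. The 2 genes were CORO2A, a coronin that binds actin, and SLCO4A1, a carrier of organic anions. CORO2A T>C CPM was 21.2, 12.6 and 17.2 at 0h, 7.99, 8.25 and 11.2 at 3h and 3, 2.28 and 2.56 at 24h, with a log2 ratio of 24h to 3h within cultures of -1.62 ± 0.33 (SD, n = 3). Its 24h libraries all lay below its 3h libraries.

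SLCO4A1 came close to losing all reads. Its T>C reads, as counts, were 46, 25 and 42 at 0h, 21, 21 and 8 at 3h and 1, 0 and 0 at 24h, and its total reads were 55, 28 and 55 at 0h, 23, 25 and 12 at 3h and 1, 0 and 0 at 24h. The 1 T>C read left at 24h was 1.67% of the 3h level and 0.823% of the 0h level, with exact 95% counting intervals of 0.0414% to 9.72% and 0.0206% to 4.68%. Of its reads at 0h, 83.1% ± 6.48 were T>C reads, the highest share of the set, and no share exists where no read was counted. These intervals cover counting error only, as no molecular identifiers were stated and reads may be PCR copies.

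In unconverted reads, which report mostly on RNA made before the label, 28 of 57 members tested were called lower at 24h than at 3h (background 2.25%) and 0 higher, and edgeR called 28 lower and 0 higher. In total reads 26 of 58 were called lower (background 2.88%) and 0 higher. At an unadjusted p under 0.05, 0 were higher in either. The rule used no unconverted reads, whereas total reads contain the T>C reads that it used. It did choose genes low in new RNA at both times, from these same libraries. The unconverted counts are therefore not independent of the choice, and the background holds genes that were not so chosen. This comparison was chosen after its values had been seen. The unconverted count was 7 without S9CC13_R6 and 15 without S9CC47_R5, and the total count was 6 and 16. Between 3h and 24h, unconverted CPM was lower in all 3 cultures for 43 of the 59 members, beside 26.4% of all genes, and higher in all 3 for 0. T>C CPM was lower in all 3 cultures for 20 and higher in all 3 for 4, beside 21.0% and 24.5% of all genes.

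**Figure D3:**
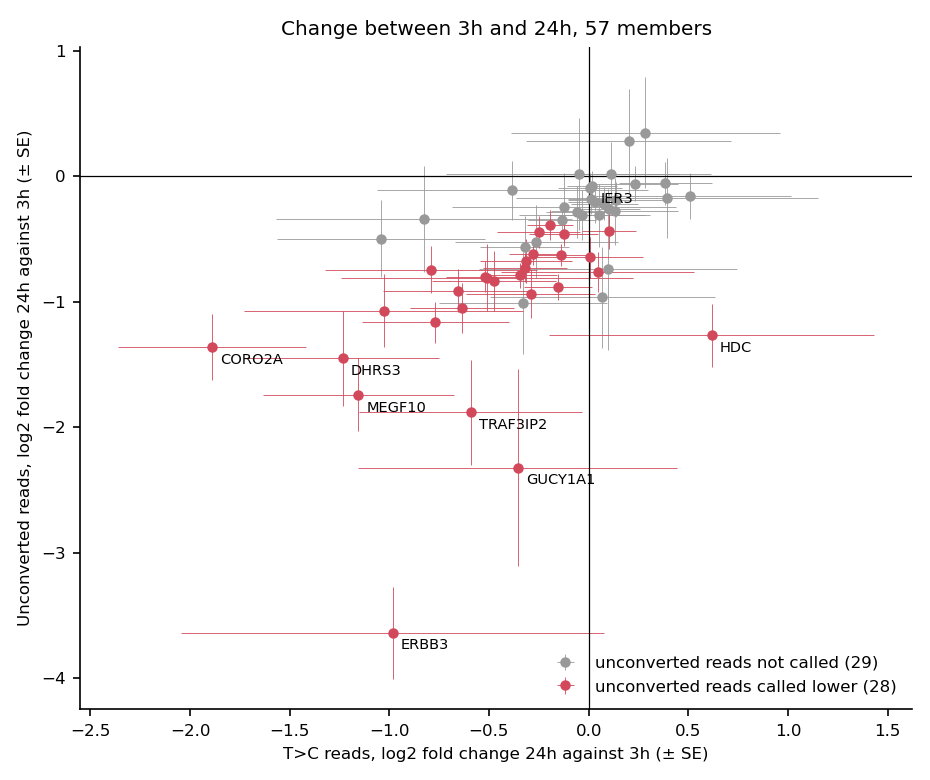
Fitted log2 fold change from 3h to 24h of T>C reads (horizontal) and of unconverted reads (vertical) for the 57 members tested in both, with bars for the SE. The 28 members called lower in unconverted reads are red and the other 29 grey. T>C changes spread around 0 while most unconverted changes are below it, with ERBB3 lowest at -3.64.

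The 28 genes had lower T>C shares at 0h (median 23.1%, range 8.22% to 73.4%) than the other 29 (median 37.8%, range 11.6% to 71.8%). They also had more unconverted reads to be called on, with a median of 23.9 unconverted CPM at 0h against 11.2. Share and read level were not told apart in this split. Across the 57 genes the Spearman correlation of the 0h share with the unconverted fold change from 3h to 24h was 0.28, and 0.48 over those with a mean of at least 50 T>C reads. Across 10564 genes over the floor it was -0.08. Genes are not independent replicates, the points share the same libraries, and both quantities contain unconverted reads. The 10 members called with a log2 fold change of -1 or lower were ERBB3, GUCY1A1, TRAF3IP2, MEGF10, DHRS3, CORO2A, HDC, RHOJ, SPATA18 and ERG. Of the rest, 18 lay between -0.94 and -0.39.

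**Figure D4:**
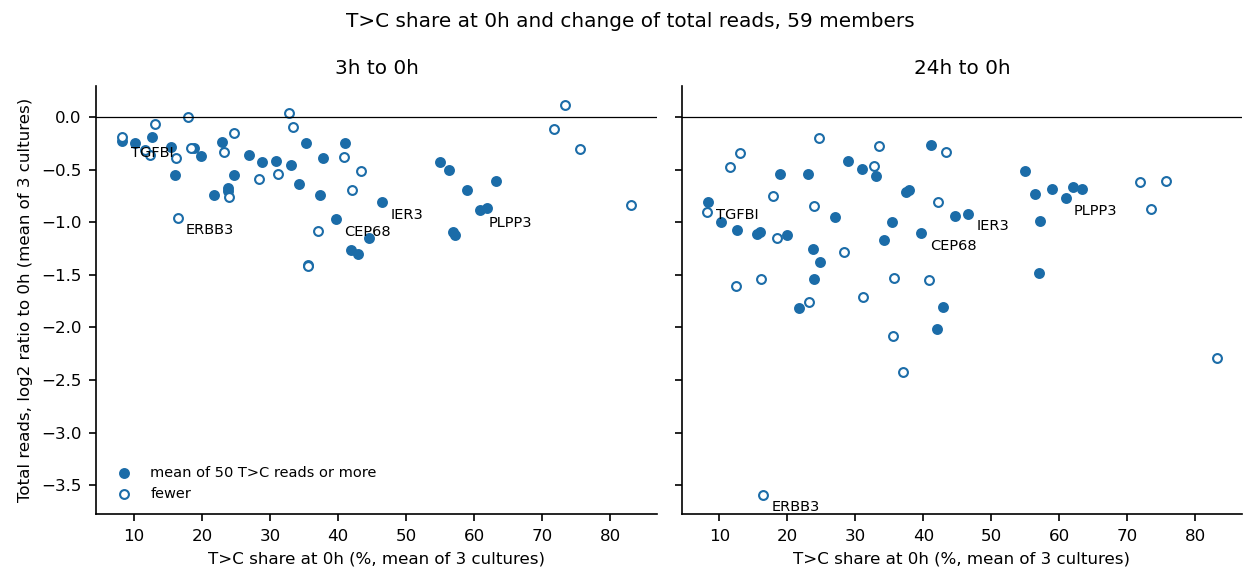
T>C share at 0h in percent (horizontal) against the log2 ratio of total CPM to 0h (vertical) at 3h (left) and 24h (right), as means of 3 cultures, for the 59 genes. Filled points have a mean of at least 50 T>C reads. At 3h genes with higher shares tend to lie lower, and at 24h genes of low share such as TGFBI have moved down.

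The 0h share was also set against the changes from 0h. Every member was chosen for a fall of T>C reads, which are part of total reads. A negative correlation of the share with total reads at 3h is thus partly built in, and nothing is read from its sign. The Spearman correlation of the 0h share with the change of total reads at 3h was -0.41 over 59 genes, and -0.63 over the 34 with a mean of at least 50 T>C reads. At 24h it was 0.12. With unconverted reads in place of total reads, the correlation at 3h was -0.21 over 59 genes and -0.51 over the 34. At 24h it was 0.21 over 59 genes. IER3, PHLDA1, ENC1 and PLPP3, whose mean shares at 0h were 46.5%, 62.0%, 58.9% and 60.9%, had total read ratios of -0.81, -0.86, -0.70 and -0.89 at 3h and -0.92, -0.67, -0.68 and -0.77 at 24h. TGFBI, NID1, HK1 and DNAJC1, with shares of 8.27%, 10.2%, 12.6% and 15.5%, had -0.23, -0.25, -0.19 and -0.28 at 3h and -0.81, -1.003, -1.07 and -1.11 at 24h. As T>C reads are part of total reads, their changes are not independent. Total reads did not follow T>C reads in every member of high share. GUCY1A1, ARAP2 and AC108488.2, with shares of 73.4%, 71.8% and 75.6%, had T>C ratios of -0.93, -1.198 and -0.78 at 3h. Their total read ratios at 3h were 0.11, -0.12 and -0.31. SLCO4A1, with a share of 83.1%, had -1.002 in T>C and -0.83 in total reads. All of these genes had a mean under 50 T>C reads. Called lower in total reads were 32 of 58 members at 3h (background 0.777%) and 51 at 24h (background 7.85%), and in unconverted reads 21 of 57 at 3h (background 0.408%) and 48 at 24h (background 6.27%). These too share the rule's contrasts and are description. Without S9CC13_R6 the total counts were 16 and 27 and the unconverted counts 6 and 23, and the unconverted count at 3h was 12 without S9CC47_R5 and 9 without S9CC47_R6.

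**Figure D5:**
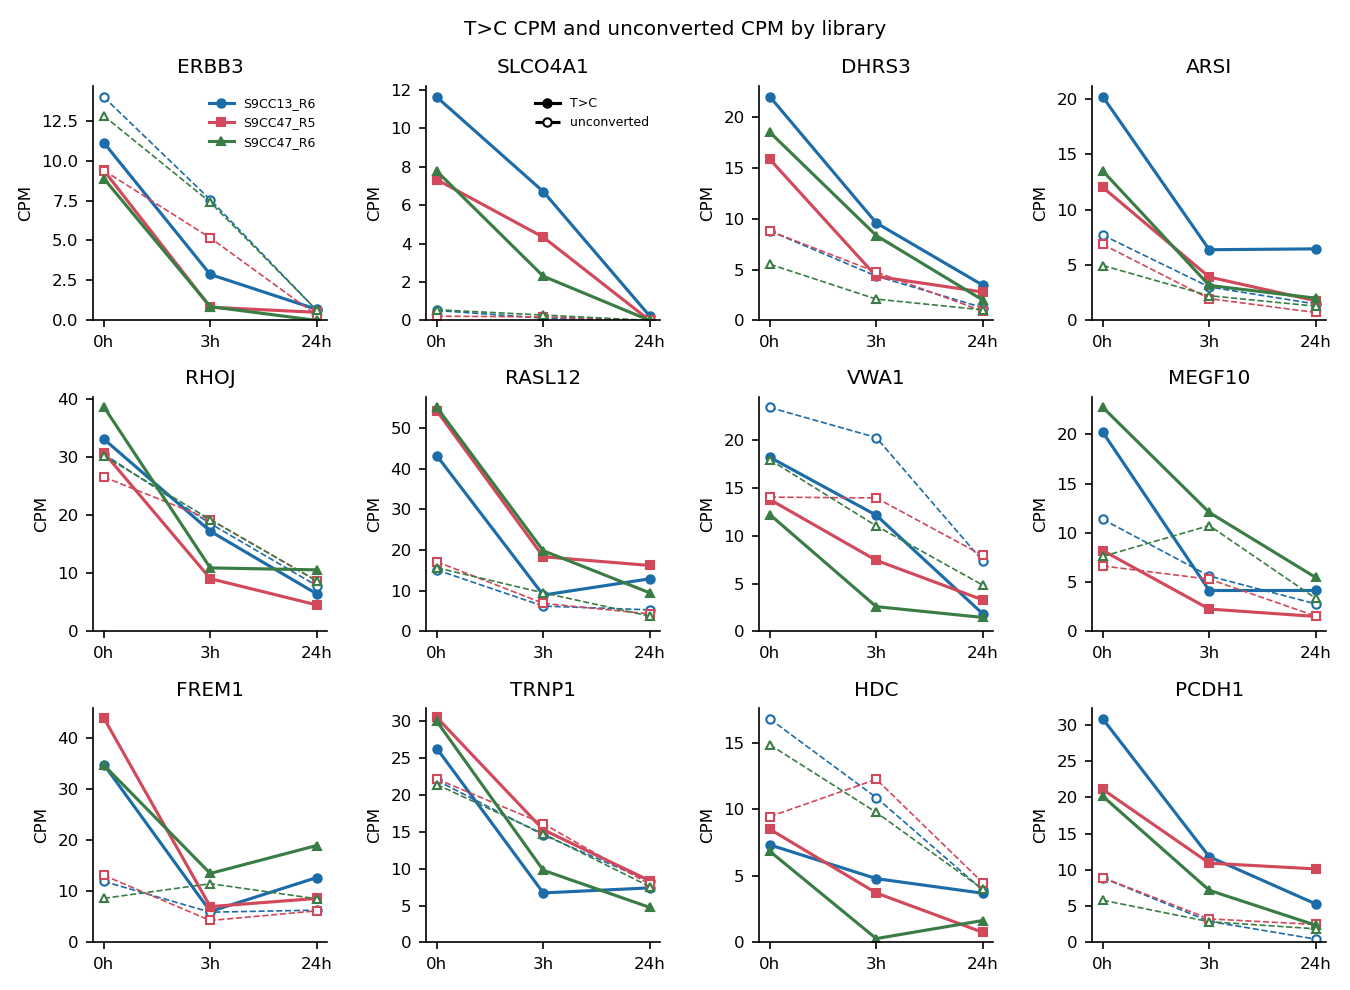
T>C CPM (filled symbols, solid lines) and unconverted CPM (open symbols, dashed lines) of the 12 members with the lowest mean of 6 T>C ratios, by group and culture, each panel on its own linear scale from 0. T>C CPM is lower at 3h than at 0h in every culture. Unconverted CPM is lower at 24h than at 3h in every culture for all members shown except FREM1.

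By what they are known to do, the members were grouped into signalling (10), matrix and adhesion (9), cytoskeleton, motors and centrosome (16), transport and metabolism (12), transcription (5), protein handling (4) and other (3). The groups were drawn up after membership was known. Their median T>C ratios were alike, between -1.16 and -0.80 at 3h and between -1.31 and -0.99 at 24h. The unconverted ratio at 3h ran from -0.46 in transport and metabolism to -0.07 in transcription.

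Among signalling genes, ERBB3 had the lowest mean of the 6 T>C ratios in the set. It encodes a neuregulin receptor of the EGF receptor family that neural crest derivatives of the glial lineage use. ERBB3 T>C CPM was 11.1, 9.38 and 8.87 at 0h, 2.87, 0.825 and 0.863 at 3h and 0.693, 0.507 and 0 at 24h. The 3 groups did not overlap, and the 24h level rested on 5 T>C reads in all, 3.75% of the 0h level with an exact 95% counting interval of 1.20% to 8.98%. Its unconverted CPM was 14, 9.38 and 12.8 at 0h, 7.56, 5.17 and 7.4 at 3h and 0.628, 0.325 and 0.643 at 24h, and the 3 groups did not overlap here either. From 3h to 24h the unconverted reads changed by -3.64 (SE 0.37, adjusted p = 2.01e-19) as a log2 fold change. In bulk libraries fewer cells of a type and less RNA per cell cannot be told apart, and the part of such cells in the ERBB3 result was not tested.

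MEGF10, a receptor for engulfing cell debris, had T>C CPM of 20.2, 8.21 and 22.7 at 0h, 4.15, 2.27 and 12.1 at 3h and 4.16, 1.52 and 5.48 at 24h. S9CC47_R5 started lower than the other cultures, and the 0h and 3h groups overlapped. Unconverted MEGF10 reads changed by -1.74 (SE 0.29, adjusted p = 5.23e-07) from 3h to 24h. TRAF3IP2, an adaptor of the interleukin-17 receptor, had unconverted CPM of 3.79, 4.36 and 3.17 at 0h, 3.87, 3.79 and 3.42 at 3h and 1.37, 0.456 and 1.43 at 24h, so its older RNA overlapped with the 0h level at 3h and lay below it at 24h. The change from 3h to 24h was -1.88 (SE 0.42, adjusted p = 7.47e-04).

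IER3, an early response gene of stress and growth signals, had T>C CPM of 447, 427 and 487 at 0h, 264, 293 and 206 at 3h and 217, 273 and 214 at 24h. PHLDA1, which growth factor signalling induces, had 202, 180.3 and 193 at 0h, 102, 84.4 and 139 at 3h and 127, 103 and 134 at 24h. The 3h and 24h groups of both genes overlapped, and both lay below 0h in T>C and in unconverted reads. SASH1, a signalling scaffold, was at 274, 261 and 293 at 0h, 181, 189 and 180.3 at 3h and 161, 161 and 159.6 at 24h, with the 24h libraries below the 3h libraries by a small margin. SFRP2, a secreted modulator of WNT ligands, was at 50.8, 53.9 and 60.1 at 0h, 27.2, 37.1 and 41.4 at 3h and 31.4, 31.7 and 42.9 at 24h. ADGRA2, an adhesion receptor that assists WNT7 signalling, and ANGPTL1, a secreted angiopoietin-like protein, had T>C ratios of -0.66 ± 0.29 and -1.40 ± 0.39 at 3h and -0.79 ± 0.29 and -1.53 ± 0.57 at 24h (SD, n = 3).

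GUCY1A1, a subunit of the nitric oxide receptor guanylate cyclase, had fewer T>C reads but more unconverted reads at 3h than at 0h. Its T>C CPM was 7.33, 3.22 and 4.99 at 0h, 4.15, 2.06 and 1.44 at 3h and 0.924, 1.27 and 2.01 at 24h, with 4 to 29 T>C reads a library. Its unconverted CPM was 0.402, 0.591 and 0.257 at 0h, 1.45, 1.1 and 1.19 at 3h and 0.171, 0.26 and 0.346 at 24h, higher at 3h than at 0h in all 3 cultures. The log2 fold change of unconverted reads from 3h to 24h was -2.32 (SE 0.78, adjusted p = 0.0771). The other 2 members with unconverted reads above 0h in all 3 cultures at 3h were ARAP2, which regulates Arf GTPases, and AC108488.2. ARAP2 had T>C CPM of 7.07, 6.16 and 7.03 at 0h, 2.87, 1.86 and 3.45 at 3h and 3.7, 2.54 and 2.37 at 24h. Unconverted ARAP2 reads were at 1.15, 0.295 and 0.599 at 0h, 2.48, 0.823 and 1.19 at 3h and 1.03, 0.391 and 0.346 at 24h CPM. AC108488.2 had T>C CPM of 6.06, 11.4 and 8.13 at 0h, 4.15, 4.54 and 5.18 at 3h and 2.31, 7.1 and 3.47 at 24h. Unconverted AC108488.2 reads were at 1.03, 0.443 and 0.385 at 0h, 1.27, 0.869 and 0.768 at 3h and 0.513, 0.521 and 0.445 at 24h CPM. This entry matched no gene in the annotation and entered no fit. All 3 genes are of low depth, and all genes over the floor were above 0h in all 3 cultures at 3h in 18.0% of cases.

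Among matrix and adhesion genes, VWA1, a matrix protein of cartilage and basement membranes, had T>C CPM of 18.2, 13.8 and 12.2 at 0h, 12.1, 7.43 and 2.59 at 3h and 1.85, 3.3 and 1.46 at 24h. Unconverted VWA1 reads were at 23.4, 14 and 17.9 at 0h, 20.3, 13.9 and 11 at 3h and 7.36, 7.94 and 4.84 at 24h CPM. The older VWA1 RNA of the 0h and 3h groups overlapped, and both groups lay above 24h, with a change from 3h to 24h of -0.75 (SE 0.19, adjusted p = 0.00534). With the culture as a replicate block it was -1.13. FREM1, a basement membrane protein needed for the shape of the face, had T>C CPM of 34.9, 44 and 34.8 at 0h, 6.07, 7.02 and 13.5 at 3h and 12.7, 8.62 and 19 at 24h. Within each of the 3 cultures it was higher at 24h than at 3h, by log2 ratios of 1.01 in S9CC13_R6, 0.28 in S9CC47_R5 and 0.48 in S9CC47_R6, although the groups overlapped. The fitted log2 fold change was 0.13, and 0.60 with the culture as a replicate block. PCDH1, a protocadherin, was at 30.8, 21.1 and 20.2 at 0h, 11.8, 10.9 and 7.19 at 3h and 5.31, 10.1 and 2.37 at 24h. It was below 0h in every library at both times. TGFBI, a secreted matrix protein that TGF-beta induces, had T>C CPM of 216, 232 and 217 at 0h, 133, 150.2 and 136 at 3h and 105, 132 and 110.1 at 24h. Unconverted TGFBI reads were at 583, 598 and 566 at 0h, 448, 552 and 517 at 3h and 336, 335 and 342 at 24h CPM. It had the tightest T>C ratio at 3h, -0.67 ± 0.04, and its 3 groups did not overlap in either kind of read.

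NID1, a basement membrane linker, and HMCN1, a very large matrix protein, had T>C ratios of -0.91 ± 0.15 and -0.84 ± 0.40 at 3h and -1.24 ± 0.12 and -0.99 ± 0.50 at 24h. Their unconverted reads changed by -0.73 (SE 0.11, adjusted p = 1.50e-08) and -0.65 (SE 0.16, adjusted p = 0.00457) from 3h to 24h. FAT4, an atypical cadherin of planar polarity, NRXN2, a synaptic adhesion protein, and CXADR, a junction protein, completed the group. FAT4 had 2 to 42 T>C reads a library. CXADR T>C CPM at 3h and 0h overlapped between cultures, as did that of MEGF10, GUCY1A1 and AGMAT. The fall within each culture was set by the rule.

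The cytoskeletal group was the largest. RHOJ, a small GTPase, had T>C CPM of 33.1, 30.8 and 38.6 at 0h, 17.2, 9.08 and 10.9 at 3h and 6.47, 4.56 and 10.6 at 24h. Unconverted RHOJ reads were at 30.5, 26.6 and 30.2 at 0h, 18.6, 19.2 and 19.3 at 3h and 7.87, 8.72 and 8.7 at 24h CPM. The unconverted values of the 3 groups did not overlap and changed by -1.17 (SE 0.17, adjusted p = 1.41e-09) from 3h to 24h. RASL12, a Ras-like GTPase, had T>C CPM of 43.2, 54.2 and 55.1 at 0h, 8.94, 18.4 and 19.8 at 3h and 12.9, 16.2 and 9.5 at 24h. Unconverted RASL12 reads were at 15.1, 17.1 and 15.7 at 0h, 6.23, 6.9 and 9.49 at 3h and 5.31, 4.3 and 3.76 at 24h CPM, so both kinds of read were already lower at 3h. LIMCH1, which activates non-muscle myosin, was at 279, 262 and 266 at 0h, 113, 88.5 and 123 at 3h and 113, 82.4 and 118 at 24h. With 325 to 1440 T>C reads a library it was well measured, and its T>C log2 ratio of 24h to 3h was -0.06 ± 0.05. From 3h to 24h its unconverted reads changed by -0.63 (SE 0.09, adjusted p = 2.37e-10).

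ENC1, an actin-binding kelch protein of the early nervous system, had T>C CPM of 593, 596 and 533 at 0h, 366, 303 and 383 at 3h and 399, 315 and 370.4 at 24h, with log2 ratios of -0.72 ± 0.25 at 3h and -0.67 ± 0.22 at 24h. Of the other actin regulators, SYNPO, TNS2, FGD4, EPS8 and MTSS2 had T>C ratios of -0.99 ± 0.42, -1.09 ± 0.24, -0.71 ± 0.11, -0.65 ± 0.22 and -0.77 ± 0.05 at 3h. At 24h they were -1.68 ± 0.31, -1.32 ± 0.40, -0.74 ± 0.15, -0.89 ± 0.04 and -0.54 ± 0.07. The microtubule members were CAPN6, a calpain that stabilises microtubules, the kinesins KIF1A and KIF3A, CEP68 of the centrosome linker, and CCDC113 of cilia. CEP68 was lower in both kinds of read at 3h, by ratios of -1.001 ± 0.18 in T>C and -0.91 ± 0.06 in unconverted reads. CCDC113 had unconverted ratios of 0.02 ± 0.34 at 3h and -0.04 ± 0.46 at 24h, near 0.

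Promoter sequence was taken from RefSeq (GRCh38.p14, 250 bases before to 50 after each gene's start) to see what the genes share that the rule did not use. Windows were counted for 44 of the 59 members. None was counted for AC108488.2, ADGRA2, ARAP2, CCDC113, CXADR, DNAJC1, ENC1, EPS8, ERBB3, FAT4, HMCN1, IER3, KBTBD11, NRXN2 or SLCO4A1. The windows used for comparison do not cover every protein-coding gene either. The SOX-type letters AACAAT, on either strand, lay in 5 of 44 windows (11.4%: RHOJ, LIMCH1, FGD4, KIF1A and AGMAT) and in 6.80% of 14903 protein-coding windows. ACAAAG lay in 4 (9.09% against 12.7%), the AP-1 letters TGANTCA in 4 (9.09% against 5.73%), TATAAA in 3 (6.82% against 9.54%), the E-box CANNTG in 24 (54.5% against 64.2%) and GGGCGG in 29 (65.9% against 59.7%). The median GC content was 63.7% in members and 63.0% in all. Both strands were searched for each, and matches may overlap. These are counts of letters. They are not binding sites, and their absence says nothing of a factor.

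The windows of 3 cytoskeletal members with the SOX-type letters are shown, with AACAAT or its complement ATTGTT in capitals, because RHOJ and LIMCH1 are described above by library and FGD4 holds ACAAAG as well. All run 5′ to 3′ on the plus strand. The windows of RHOJ and FGD4 lie wholly inside the genes as GENCODE draws them (chr14:63204114-63293508 and chr12:32399558-32646050). Their matches are thus before the RefSeq start but after the GENCODE start.
RHOJ, chr14:63204193-63204492: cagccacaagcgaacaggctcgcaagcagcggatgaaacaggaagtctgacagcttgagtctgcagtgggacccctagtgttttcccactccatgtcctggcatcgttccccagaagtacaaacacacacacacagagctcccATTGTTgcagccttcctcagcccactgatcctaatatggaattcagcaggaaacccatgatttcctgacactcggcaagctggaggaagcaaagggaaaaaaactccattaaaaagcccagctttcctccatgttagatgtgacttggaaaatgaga
LIMCH1, chr4:41359357-41359656: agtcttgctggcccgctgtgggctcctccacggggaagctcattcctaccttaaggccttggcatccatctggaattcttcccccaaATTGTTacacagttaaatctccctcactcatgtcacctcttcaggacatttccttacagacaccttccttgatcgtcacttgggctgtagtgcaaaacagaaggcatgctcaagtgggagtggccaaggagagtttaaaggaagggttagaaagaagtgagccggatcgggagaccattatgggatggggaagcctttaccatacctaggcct
FGD4, chr12:32501913-32502212: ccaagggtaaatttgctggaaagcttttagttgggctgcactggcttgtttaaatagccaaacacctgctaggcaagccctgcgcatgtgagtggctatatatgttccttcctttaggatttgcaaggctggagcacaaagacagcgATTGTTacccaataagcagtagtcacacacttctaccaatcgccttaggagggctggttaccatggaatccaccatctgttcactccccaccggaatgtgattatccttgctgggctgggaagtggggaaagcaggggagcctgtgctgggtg
The match lay 107 bases before the RefSeq start in RHOJ, 163 in LIMCH1 and 103 in FGD4, each time as ATTGTT.

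Among transport and metabolism genes, DHRS3, a reductase that turns retinaldehyde back to retinol, had T>C CPM of 22, 15.8 and 18.5 at 0h, 9.58, 4.33 and 8.34 at 3h and 3.46, 2.79 and 2.01 at 24h. Unconverted DHRS3 reads were at 8.79, 8.79 and 5.52 at 0h, 4.35, 4.75 and 2.09 at 3h and 1.26, 0.911 and 1.04 at 24h CPM. The 3 groups did not overlap in either kind of read, and the change from 3h to 24h was -1.45 (SE 0.38, adjusted p = 0.00767) in unconverted reads. Its T>C log2 ratio of 24h to 3h was -1.24 ± 0.64. ARSI, an arylsulfatase, was at 20.2, 12 and 13.5 at 0h, 6.39, 3.92 and 3.16 at 3h and 6.47, 1.77 and 2.01 at 24h. It stayed higher in S9CC13_R6 than in the other cultures at 24h. HDC, the histamine-making decarboxylase, had T>C CPM of 7.33, 8.5 and 6.84 at 0h, 4.79, 3.71 and 0.288 at 3h and 3.7, 0.761 and 1.64 at 24h, with a single T>C read in S9CC47_R6 at 3h. Unconverted HDC reads were at 16.8, 9.45 and 14.8 at 0h, 10.9, 12.3 and 9.77 at 3h and 3.94, 4.49 and 4 at 24h CPM. Its unconverted reads changed by -1.27 (SE 0.25, adjusted p = 6.09e-05) from 3h to 24h.

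PLPP3, a phosphatase of lipid messengers at the cell surface, had T>C CPM of 537, 542 and 421 at 0h, 298, 256 and 244 at 3h and 355, 254 and 258 at 24h. Its log2 ratio of 24h to 3h was 0.11 ± 0.14. HK1, a hexokinase of glycolysis, had T>C ratios of -0.60 ± 0.31 at 3h and -1.04 ± 0.24 at 24h, and its unconverted reads changed by -0.79 (SE 0.10, adjusted p = 4.42e-12) from 3h to 24h. KCNK5, a background potassium channel, SLC6A11, a GABA transporter, ST3GAL4, a sialyltransferase, SFXN4, a mitochondrial carrier-like protein, AGMAT and ABHD14A completed the group. Their T>C ratios were -1.15 ± 0.26, -0.82 ± 0.09, -0.97 ± 0.47, -1.23 ± 0.53, -0.66 ± 0.12 and -0.64 ± 0.22 at 3h. AGMAT held 4 to 34 T>C reads a library.

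Among transcription genes, TRNP1, a nuclear regulator of progenitor proliferation, had T>C CPM of 26.3, 30.5 and 29.9 at 0h, 6.71, 15.3 and 9.78 at 3h and 7.39, 8.37 and 4.75 at 24h. Its unconverted reads changed by -0.91 (SE 0.17, adjusted p = 2.51e-05) from 3h to 24h. TRNP1 lies 4.13 kb from TENT5B, one of the genes left out by name, on chromosome 1. ERG, an ETS family factor, had unconverted CPM of 12.8, 19 and 18.1 at 0h, 13.1, 17.9 and 16.1 at 3h and 6.62, 9.57 and 8.55 at 24h, with 0h and 3h overlapping, and changed by -1.05 (SE 0.20, adjusted p = 2.70e-05) from 3h to 24h. WWTR1, the TAZ co-activator of the Hippo pathway, had T>C ratios of -0.80 ± 0.11 at 3h and -0.65 ± 0.05 at 24h, beside unconverted ratios of -0.02 ± 0.14 and -0.46 ± 0.09. DACH1, a nuclear factor of eye and limb development, had T>C CPM of 53.1, 54.8 and 39.6 at 0h, 37.4, 27.4 and 26.8 at 3h and 38.3, 36.3 and 29.8 at 24h, which gave the highest mean T>C ratio of the set at 24h. Unconverted DACH1 reads were at 16.8, 16.5 and 16.3 at 0h, 20.3, 14 and 16.4 at 3h and 18, 13 and 13.6 at 24h CPM, and the 3 groups overlapped. ZNF785, a zinc finger protein, had 8 to 38 T>C reads a library.

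In protein handling, the T>C ratios at 3h and 24h are given in that order. RNF157, an E3 ubiquitin ligase, had -1.26 ± 0.23 and -1.53 ± 0.16, KBTBD11, a kelch protein, -0.84 ± 0.32 and -1.13 ± 0.10, DNAJC1, a co-chaperone of the endoplasmic reticulum, -0.92 ± 0.14 and -1.01 ± 0.15, and SEC22B, a SNARE of transport vesicles, had -0.75 ± 0.15 and -0.61 ± 0.13. SEC22B has near-identical pseudogene copies, so its reads are uncertain. SPATA18, of mitochondrial quality control, had unconverted reads that changed by -1.07 (SE 0.29, adjusted p = 0.0116) from 3h to 24h, and FAM222A had T>C ratios of -1.45 ± 0.52 and -1.13 ± 0.26.

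By position on hg38, the 58 members with a GENCODE match lay on 19 chromosomes. Gene spans ran from 1.35 kb (IER3) to 457 kb (HMCN1), with a median of 52.1 kb beside 35.9 kb over 10656 protein-coding genes above the floor. ERBB3 lies at chr12:56076799-56103505, RHOJ at chr14:63204114-63293508, DHRS3 at chr1:12567910-12618210, LIMCH1 at chr4:41359607-41700044 and SLCO4A1 at chr20:62642503-62685785. ARSI and SYNPO, 262 kb apart on chromosome 5, were the only pair of members within 1 Mb. ABHD14A shares its strand with a read-through gene into ACY1, and ERBB3 and PLPP3 with unnamed genes. RASL12, ANGPTL1, TNS2, CCDC113, CEP68, AGMAT, ADGRA2 and ABHD14A overlap a gene of the other strand. The counts of these genes are uncertain to that extent.

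Between cultures at 0h, the members' T>C CPM differed by amounts close to those of other genes. The median absolute log2 difference was 0.20 between S9CC13_R6 and S9CC47_R6 (0.19 over all genes above the floor), with AGMAT lowest at -1.16, and 0.17 between S9CC47_R5 and S9CC47_R6 (0.22 over all), with MEGF10 lowest at -1.42.

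Some members stood on the gene lists used for the pathways around them. They were TGFBI (BMP and TGF-beta), PHLDA1 (feedback of ERK signalling), SFRP2 (WNT), IER3 (immediate early), DACH1 (neural progenitors) and ERBB3 (glia). Of all genes over the CPM floor, 59 of 10731 were members. Of 22 mesenchymal crest markers, all over the floor, 0 were members. Of 36 cartilage genes 15 reached the floor and 0 were members, but SOX5 is on this list and was left out by name. At the share over all genes, neither 0 is read as a result. In T>C reads at 3h, 1 of 22 cartilage genes tested was called lower (SOX5) and 0 higher, and at 24h 8 were lower (COL11A1, COL2A1, COL9A1, MIA, PRELP, SOX5, SOX6 and WWP2). Of 20 ERK feedback genes, 3 were lower and 1 higher at 3h, and 3 lower and 5 higher at 24h, with DUSP6 lower at 3h and higher at 24h. Of 30 BMP and TGF-beta genes tested, 2 were lower and 1 higher at 3h, and 2 lower and 7 higher at 24h. Of 15 WNT genes tested, 2 were lower (FRZB and SFRP2) and 1 higher at 3h, and 1 lower and 0 higher at 24h. Of 22 immediate early genes tested, 1 was lower (IER3) and 2 higher at 3h, and 1 lower and 6 higher at 24h. Of the 22 mesenchymal crest markers, 0 were lower and 4 higher at 3h, and 0 lower and 11 higher at 24h. Of 4 neural progenitor markers tested, 1 was lower at 3h (DACH1) and 0 at 24h, with 0 higher. Of 3 glial and melanocyte markers tested, 1 was lower at 3h (ERBB3) and 2 at 24h, with 0 higher. The background was 0.789% lower and 1.01% higher at 3h, and 2.59% lower and 2.38% higher at 24h. Lower calls of members and of SOX5 come from the contrasts that the rule used, so these counts are a description.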

How the data were processed

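The 9 SLAM-seq libraries formed 3 groups of 3, taken from the sample titles. The authors deposited raw counts per gene symbol, with total reads in one table and T>C reads in another, after trimming read 1 and mapping and counting it with slamdunk. The labels give hg38. QuantSeq 3′ libraries had 15 cycles of PCR, and no molecular identifiers were stated. Unconverted reads are total minus T>C reads.

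The 59 genes, the gene lists and the tests were chosen with earlier results of these data known. Counts of all 9 libraries entered DESeq2 (1.42.0, R 4.3.3) with differentiation batch, 1 surrogate variable (svaseq, sva 3.50.0) and time, for protein-coding genes at 1 CPM or more in at least 3 libraries (12037 genes for T>C, 11710 for total and 11529 for unconverted reads). Independent filtering was off, and calls were made at a Benjamini-Hochberg adjusted p below 0.1. Fitted fold changes carry their SE, other errors are SDs over the 3 cultures. The fit was tested on simulated counts. Ratios to 0h use CPM with 0.5 added, which understates changes of low genes. Coordinates came from GENCODE release 44, in which 18451 of 18970 symbols matched directly and 118 not at all, synonyms included. T>C calling needs a converted base in the read, so the share also depends on label uptake and on the T content of the counted end.

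Named with every library's T>C value were the 12 members with the lowest mean of 6 ratios, the 6 with the highest mean T>C CPM, members on a gene list, those called from 3h to 24h in T>C reads, those with more unconverted reads at 3h in all cultures, and the 3 genes on each side of the threshold. The cultures pair libraries across times by clone and batch. Correlations of same-culture deviations from group means ran from 0.00297 to 0.328 for T>C reads, from -0.0562 to 0.54 for unconverted and from -0.0664 to 0.611 for total reads. Between 3h and 24h in unconverted reads they were 0.338 in S9CC13_R6, 0.311 in S9CC47_R5 and 0.54 in S9CC47_R6. The main fit held batch but not the culture. With the culture as a replicate block, 32 members were called lower in unconverted reads from 3h to 24h. Alternatives were edgeR (4.0.16) with TMM, other size factors, filters and thresholds, the culture as a replicate block, and each culture left out. P-values of the main fit measure the spread among libraries that batch, surrogate variable and time leave over. They do not measure the spread of the change within cultures. With 1 culture of clone S9CC13, the spread between clones was not measured. Values of some listed marker genes are not reported here.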

Additional observations from a re-analysis of the deposited data

Results flagged for a closer look

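The rule counted no unconverted reads, but it chose genes low in new RNA at both times from the same libraries. Calls from 3h to 24h in these genes are therefore not independent of the choice. The comparison was chosen after its values had been seen. In unconverted reads, 28 members were called lower at 24h than at 3h (DESeq2 with Benjamini-Hochberg adjustment). In total reads, which contain the T>C reads of the rule, 26 were. Those with a log2 fold change of -1 or lower in unconverted reads were ERBB3 at -3.64, GUCY1A1 at -2.32, TRAF3IP2 at -1.88, MEGF10 at -1.74, DHRS3 at -1.45, CORO2A at -1.36, HDC at -1.27, RHOJ at -1.17, SPATA18 at -1.07 and ERG at -1.05. GUCY1A1 had 0.257 to 0.591 unconverted CPM at 0h, 1.10 to 1.45 at 3h and 0.171 to 0.346 at 24h, so the 24h libraries overlapped with those of 0h.

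In T>C reads the fitted log2 fold change from 3h to 24h was -5.04 (SE 1.34) for SLCO4A1, which rests on 1 read at 24h, and -1.89 (SE 0.471) for CORO2A. The values of both times entered the rule that chose the genes, so these are a description and no test.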

How the results depend on the processing

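The number of members was 56 with a pseudocount of 1, 59 with DESeq2 size factors (57 shared), 62 with T>C reads scaled by total reads (46 shared), 83 and 35 with a floor of 1 and 10 CPM, and 89 and 41 at thresholds of -0.3 and -0.5. With a culture left out, and thus fewer ratios to meet, it was 111 (S9CC13_R6), 146 (S9CC47_R5) and 112 (S9CC47_R6). Without 1 culture at a time, the members called lower numbered 13 to 22 at 3h and 16 to 32 at 24h in T>C reads, 6 to 12 and 23 to 35 in unconverted reads, and 16 to 26 and 27 to 43 in total reads. From 3h to 24h they numbered 0 to 1 in T>C, 7 to 21 in unconverted and 6 to 16 in total reads. Total reads without S9CC47_R6 were not run, since no surrogate variable was found. In T>C reads from 3h to 24h, 5 were called with the culture as a replicate block, 5 without a surrogate variable and 1 with a filter at a mean of 20 counts. The block changed no other count by over 1.5 times. The medians of the T>C share over members differed from 0h by -12.1 percentage points at 3h (SD 0.814) and -3.63 at 24h (SD 1.82). With the summed reads of all members the differences were -8.44 and 1.39, a change of sign at 24h. Genes of many reads weigh more in that sum. The median of the changes taken gene by gene was -7.38 at 3h and -0.987 at 24h. Without 1 culture at a time the median share differed by -12.6 to -11.8 points at 3h and by -4.68 to -3.09 at 24h. No T>C fold change of a single member against 0h changed sign under the alternatives run. Depth limits 12 members, whose T>C reads averaged under 20 a library.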
